A study of Mus musculus with 8 samples.

Results

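The genes described here encode the subunits of the proteasome, its activators and the factors that assemble it. They were taken from the array by name: every probe whose platform symbol begins with Psma, Psmb, Psmc, Psmd, Psme, Psmf or Psmg and a number, leaving out the immunoproteasome subunits Psmb8, Psmb9 and Psmb10. This gave 42 genes with 63 probes, out of 16593 gene symbols and 25697 probes on the array. By role they were 7 genes of the alpha ring, 7 of the beta ring, 6 ATPase and 10 non-ATPase subunits of the cap, 4 activators and 6 assembly factors. A further 2 genes, Psmc3ip and Psme3ip1, share the prefix but encode a recombination factor and a partner of an activator, and were kept apart. No probe carried the symbols Psma8, Psmb11, Psmd3, Psme2b, Psmf1 or Psmg4, which were not analysed here.

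The proteasome is the protease that degrades proteins tagged with ubiquitin in the nucleus and cytoplasm. Its barrel-shaped core is a stack of alpha and beta rings, in which some beta subunits cut the substrate and the alpha subunits form the gate. A regulatory cap binds ubiquitin chains and unfolds the substrate with a ring of ATPases, while alternative activators open the gate without ATP. Dedicated chaperones build the rings and the base of the cap and leave before the particle is complete.

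Illumina bead arrays recorded expression in primary limb bud cells (forelimb and hindlimb) of mouse embryos, isolated at embryonic day 11.5. Cells had been cultured for 6 h before treatment. AdeCre cells (n = 3 arrays) received an adenovirus expressing Cre recombinase for 24 h, and AdeLacZ cells (n = 3) received one expressing LacZ for the same time. Untreated cells (n = 2) received no virus, and the labels give no time for them. The labels give every array the strain 129XB6-Sox4fl/fl11fl/fl, so floxed alleles of Sox4 and Sox11 were present in all groups, including the Untreated cells that the labels call wild type. Cre was not given to cells without floxed alleles, so exposure to Cre and loss of the floxed genes cannot be told apart. The labels do not say which promoter drove Cre or how many embryos were pooled. The labels do not tell whether replicates came from different cultures or litters, and p-values therefore reflect only how far the arrays scatter, which may be technical.

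The targeted gene Sox4 had log2 signals of 5.34, 5.37 and 5.41 in AdeCre cells, against 6.59, 6.72 and 6.75 in AdeLacZ cells and 6.62 and 7.13 in Untreated cells. It fell by 1.31 ± 0.13 on the log2 scale in AdeCre against AdeLacZ cells (SE, limma adjusted p = 0.00114). The intensities of Sox4 were 10.9 to 12.9 in AdeCre cells, near the detection floor given below, against 66.5 to 78.1 in AdeLacZ cells. The size of its change on the log2 scale is therefore understated. Where its probe lies relative to the floxed part is not given, and no probe was named Sox11. On each array 55.9% to 56.0% of all probes lay above a detection floor of 8.87 to 8.93 intensity units. Limb mesenchyme markers were present, with 7 of the 8 genes that had a probe above the floor on all 8 arrays. Markers of other cell types differed between the groups. The summed intensity of the erythroid markers was 1309 to 1883 in AdeCre, 4165 to 4732 in AdeLacZ and 6089 to 7216 in Untreated cells, with 1 of the 5 genes with a probe, Alas2, on no array above the floor. That of the macrophage markers was 96.2 to 109 in AdeCre, 110 to 133 in AdeLacZ and 338 to 499 in Untreated cells, with Ptprc on no array above the floor among 7 genes with a probe. Endothelial markers summed to 74.5 to 96.4 in AdeCre, 96.1 to 110 in AdeLacZ and 139 to 152 in Untreated cells. Of their 5 genes with a probe 3 were tested, 1 was above the floor on all arrays and 1 on no array. The median log2 change of the 3 tested probes was 0.19 in each virus group against Untreated cells, opposite in direction to the sum. Limma called 1 gene lower and 0 higher in each of these comparisons. Neuronal markers summed to 230 to 288 in AdeCre, 391 to 445 in AdeLacZ and 296 to 314 in Untreated cells. Skeletal muscle markers had their highest sum in AdeCre cells, at 8657 to 9807, against 6415 to 6900 in AdeLacZ and 5176 to 6206 in Untreated cells. Of their 4 genes, limma called 2 higher and 0 lower in AdeCre than in AdeLacZ cells. The median log2 change of their 5 tested probes in that comparison was -0.16, opposite in direction to the sum. Surface ectoderm markers also had their highest sum in AdeCre cells, at 889 to 995, against 609 to 762 in AdeLacZ and 674 to 692 in Untreated cells. Mesenchyme markers summed to 1777 to 2022 in AdeCre, 1917 to 2107 in AdeLacZ and 2349 to 2443 in Untreated cells. Their part in the results below was not tested. In RNA from a mixed culture, fewer cells of a type and less RNA per cell cannot be told apart.

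Most of the proteasome genes gave a signal above the detection floor. Testing required a signal above the floor on 2 or more arrays, which 57 of the 63 probes and 40 of the 42 genes had, and 55 of the 57 were above the floor on all 8. The other 6 probes were above the floor on no array. They are the only probes of Psma1 and Psma6, both alpha ring subunits, and 1 probe each of Psma3, Psmb2, Psmd11 and Psmd5, whose other probes were tested. Values below are log2 signals after background correction, and a change is the difference of group means on that scale with its standard error. Changes on this scale are understated for dim probes. The threshold was an adjusted p under 0.05 from limma, by Benjamini-Hochberg over all 15944 tested probes. The 3 comparisons share arrays and are not independent of each other.

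Between AdeCre and AdeLacZ cells 4 proteasome genes passed the threshold, each on 1 probe. Of the 57 probes 1 rose, for the assembly chaperone Psmg2, and 3 fell, for the cap subunit Psmd2, the activator Psme4 and the assembly chaperone Psmd10. That is 7.02% of the probes, against 5.03% of all tested probes, 1.59% higher and 3.44% lower. The Psmd2 and Psme4 probes are dim, above the floor on 1 and 0 of the 3 AdeCre arrays. Both met the filter only with the arrays of the other groups. The median change was 0.01, as it was over all tested probes, and the median size of a change was 0.15 against 0.14. The groups did not overlap for 21 of the 57 probes (36.8%), against 28.4% of all tested probes, with 14 lower (24.6%, against 13.8%) and 7 higher in AdeCre cells (12.3%, against 14.6%). At an unadjusted p under 0.05, 10 of the 57 probes passed (17.5%), against 21.8% of all.

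In AdeLacZ against Untreated cells 2 of the 57 probes passed (3.51%), against 5.23% of all tested probes, 2.73% higher and 2.50% lower. The cap subunit Psmd8 rose and Psmg2 fell. The median change of the 57 probes was -0.11, against -0.01 over all tested probes. Of the 57, 39 lay below 0, against 8167 of all 15944 tested probes. The groups did not overlap for 22 of the 57 (38.6%, against 38.4%), 15 of them lower (26.3%, against 19.4%) and 7 higher in AdeLacZ cells (12.3%, against 18.9%). At an unadjusted p under 0.05, 9 passed (15.8%, against 20.8%).

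In AdeCre against Untreated cells 10 probes of 9 genes passed (17.5%), against 13.7% of all. Of these 2 rose (3.51%, against 6.61%) and 8 fell (14.0%, against 7.08%). When only probes above the floor on all 8 arrays were tested, 11 of 55 proteasome probes passed, against 20.7% of all. The median change was -0.07, against 0.00 over all tested probes, and 37 of the 57 lay below 0, against 7861 of all 15944. The groups did not overlap for 30 of the 57 (52.6%, against 43.3%), 20 of them lower (35.1%, against 21.3%) and 10 higher in AdeCre cells (17.5%, against 21.9%). At an unadjusted p under 0.05, 20 passed (35.1%, against 28.5%). The plot of all changes shows them by role.

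**Figure D1:**
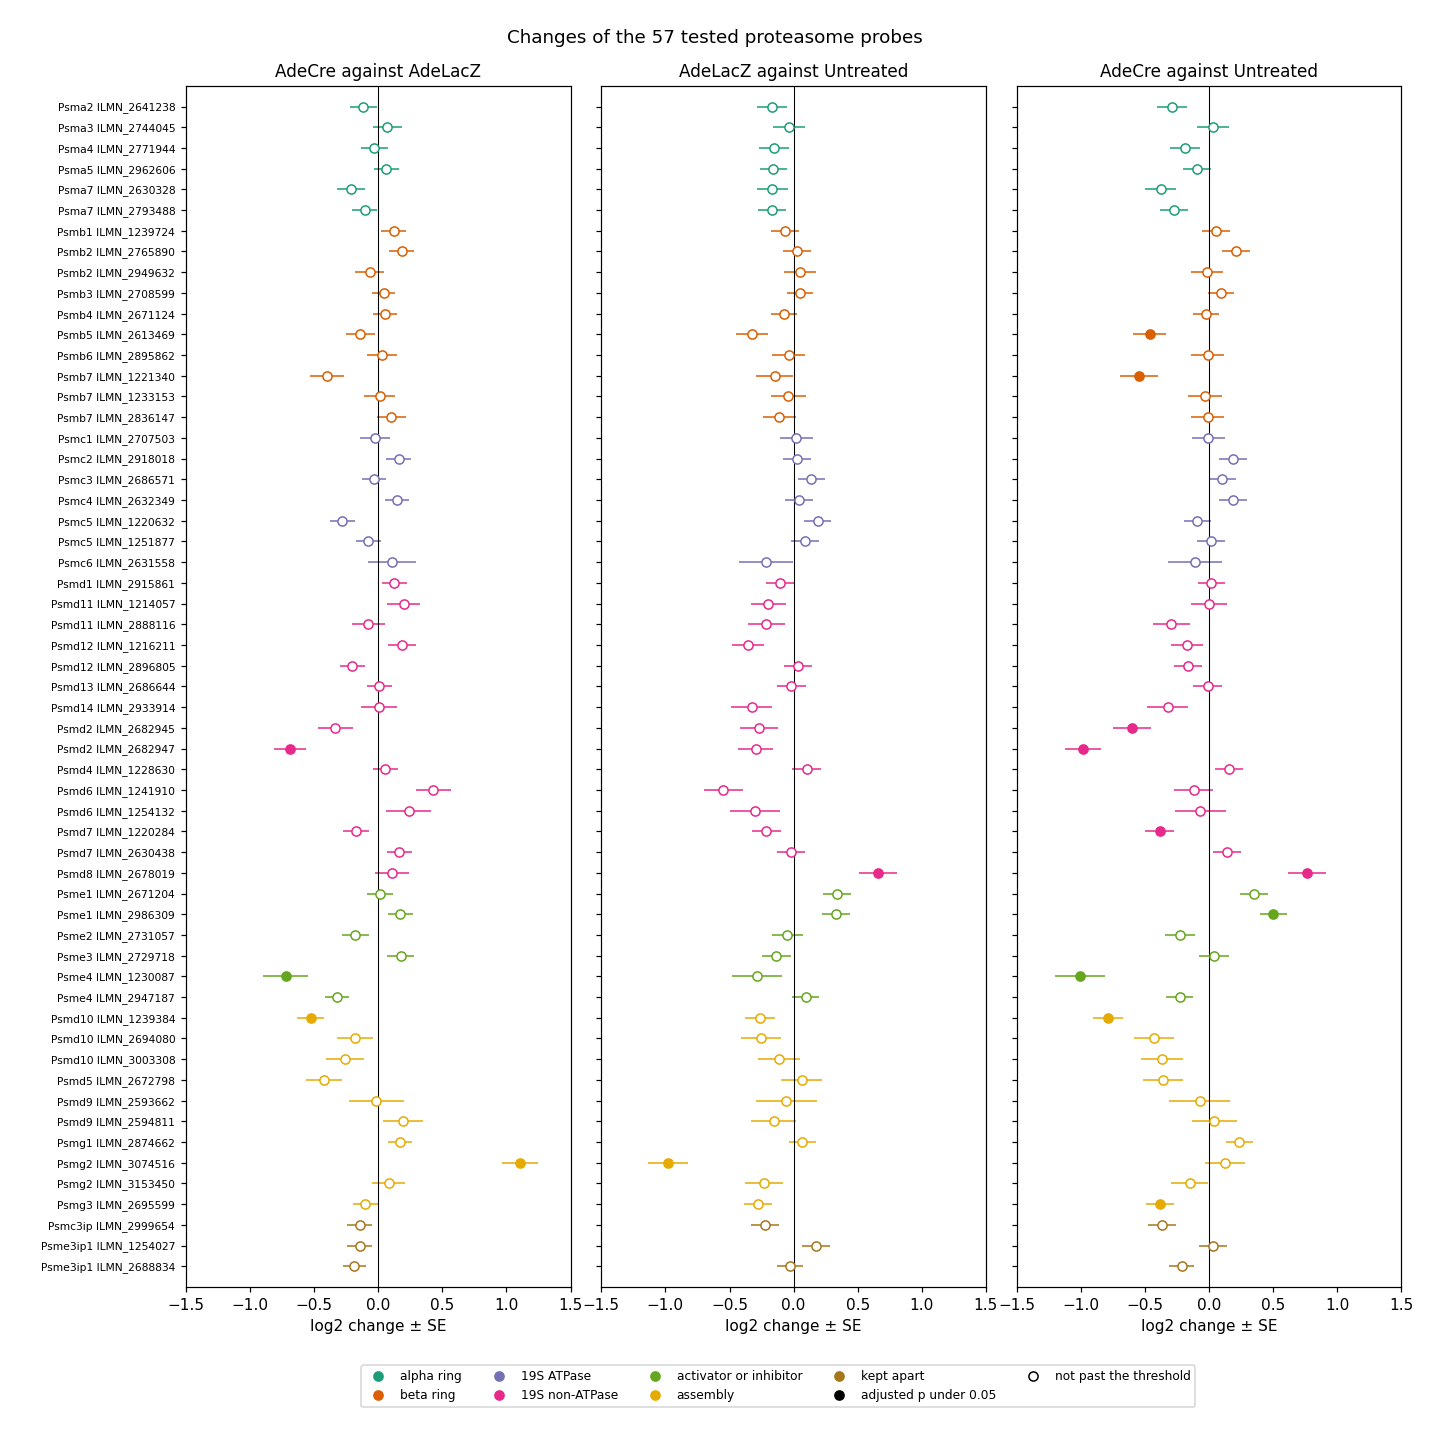
Log2 change with its standard error for each of the 57 tested proteasome probes (rows, coloured by role) in the 3 comparisons (panels), where filled points have an adjusted p under 0.05. In AdeCre against AdeLacZ, 4 points are filled, and the one farthest to the right is Psmg2 probe ILMN_3074516 at 1.10.

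In the core particle no probe passed between AdeCre and AdeLacZ cells. The 16 tested probes of 12 alpha and beta ring genes had a median change of 0.02, with 9 above and 7 below 0. Over all 15944 tested probes 8294 lay above and 7650 below 0. Limma called 0 of them, and 1 had an unadjusted p under 0.05. Their 95% confidence intervals together ran from -0.69 to 0.40. The alpha ring probes had differences of -0.21 to 0.07 between AdeCre and AdeLacZ cells, with 0 called by limma and 0 at an unadjusted p under 0.05. Against Untreated cells, all 6 of them were below 0 in AdeLacZ cells (-0.17 to -0.04) and 5 of 6 in AdeCre cells (-0.38 to 0.03), with 0 called by limma, and 0 and 3 at an unadjusted p under 0.05. The alpha ring probe with the largest change belonged to Psma7. Its probe ILMN_2630328 had log2 signals of 11.01, 10.97 and 11.03 in AdeCre cells, against 11.34, 11.21 and 11.09 in AdeLacZ cells and 11.51 and 11.25 in Untreated cells. All AdeCre arrays lay below the others. The differences were -0.21 ± 0.11 against AdeLacZ (limma adjusted p = 0.288) and -0.38 ± 0.12 against Untreated cells (adjusted p = 0.0627).

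The beta ring holds the catalytic sites, and 2 of its 10 tested probes fell in AdeCre against Untreated cells, where 7.08% of all tested probes fell. Psmb5 encodes the subunit with chymotrypsin-like activity, the main target of the drug bortezomib. Its log2 signals were 9.22, 8.85 and 8.95 in AdeCre cells, 9.16, 9.07 and 9.20 in AdeLacZ cells and 9.51 and 9.43 in Untreated cells. Both virus groups lay below the Untreated arrays and overlapped each other. Psmb5 fell by 0.46 ± 0.13 in AdeCre against Untreated cells (1.38-fold, limma adjusted p = 0.0344), and the difference in AdeLacZ against Untreated cells was -0.32 ± 0.13 (adjusted p = 0.17). The fall passed in 3 of 8 fits that left out 1 array each, and not without AdeCre replicate 2 or 3, AdeLacZ replicate 1, or Untreated replicate 1 or 2 (adjusted p up to 0.18).

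Psmb7 encodes the subunit with trypsin-like activity and had 3 tested probes. Probe ILMN_1221340 read 11.56, 11.71 and 11.88 in AdeCre cells, against 12.09, 12.22 and 12.04 in AdeLacZ cells and 12.47 and 12.05 in Untreated cells. All AdeCre arrays were below all others. It fell by 0.55 ± 0.15 in AdeCre against Untreated cells (1.46-fold, limma adjusted p = 0.0336), and its change against AdeLacZ cells was -0.40 ± 0.13 (adjusted p = 0.112). The fall did not pass without AdeCre replicate 1 or 2 or Untreated replicate 1, and without the last it was -0.33 (adjusted p = 0.264). The other probes of Psmb7 did not move with it. ILMN_1233153 read 11.50, 11.47 and 11.84 in AdeCre cells, 11.58, 11.72 and 11.48 in AdeLacZ cells and 11.61 and 11.66 in Untreated cells. ILMN_2836147 read 10.77, 10.66 and 11.05 in AdeCre cells, 10.76, 10.78 and 10.63 in AdeLacZ cells and 10.84 and 10.83 in Untreated cells. The groups overlapped for both, apart from AdeLacZ and Untreated cells on the last. Their changes in AdeCre against Untreated cells were -0.03 (adjusted p = 0.914) and -0.01 (adjusted p = 0.971). With the 3 probes averaged, Psmb7 did not pass in that comparison, at -0.20 ± 0.12 (limma adjusted p = 0.331).

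Proteasome genes are known to be switched on together, through antioxidant response elements in their promoters, by the factor Nfe2l1, and the promoter of Psmb5 is shown because it is a called core gene whose window holds the core of that element. RefSeq windows of 250 bases before the gene start (GRCm38.p6) were held for 36 of the 42 genes. The letters TGACNNNGC, searched on both strands, occurred in 5 of the 36 genes (13.9%) and in 10.2% of all 32851 windows. A gene was counted if any window held for it matched, so a share of genes is set beside a share of windows. In Psmb5 (chr14:54617996-54618245, minus strand) the match lies 47 to 39 bases before the start. It is in capitals in the sequence, which reads 5′ to 3′ along the gene:
Psmb5: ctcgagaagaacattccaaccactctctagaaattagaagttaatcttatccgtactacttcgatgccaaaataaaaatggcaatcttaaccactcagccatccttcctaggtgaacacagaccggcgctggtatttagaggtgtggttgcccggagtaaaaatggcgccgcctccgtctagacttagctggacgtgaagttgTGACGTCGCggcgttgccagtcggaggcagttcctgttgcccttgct
The other 4 matches are shown as 30 bases around the capitals, again along the gene. They lie in Psmb6 (chr11:70525327-70525356, plus strand), Psmd9 (chr5:123228148-123228177, plus strand), Psmc6 (chr14:45329586-45329615, plus strand) and Psmd12 (chr11:107479278-107479307, plus strand), and in the last 2 the element is on the opposite strand.
Psmb6: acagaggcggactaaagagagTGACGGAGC
Psmd9: tatctagccggTGACCCCGCccacttccaa
Psmc6: gccagccagtaGCTAAGTCAggcattgctc
Psmd12: tctGCTGTGTCAcatttgcccccctcagac
Of these 5 genes only Psmb5 passed in any comparison. Nfe2l1 itself, on its tested probe, had a change of 0.34 in AdeCre against AdeLacZ cells (limma adjusted p = 0.086).

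The 6 ATPases of the cap, Psmc1 to Psmc6, form the ring that unfolds substrates, and none of their 7 probes passed limma's threshold in any comparison. In AdeCre against AdeLacZ cells their changes ran from -0.28 to 0.16 with a median of -0.03, and their 95% confidence intervals together from -0.49 to 0.52. At an unadjusted p under 0.05, 1 probe passed in that comparison and 0 in each of the others. The probe with the largest change was Psmc5 ILMN_1220632. It read 10.46, 10.57 and 10.58 in AdeCre cells, against 10.73, 10.88 and 10.84 in AdeLacZ cells and 10.68 and 10.59 in Untreated cells. The AdeCre arrays lay below all others, narrowly below the Untreated ones. The difference was -0.28 ± 0.09 against AdeLacZ cells (limma adjusted p = 0.118) and -0.09 against Untreated cells (adjusted p = 0.629).

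Among the non-ATPase subunits of the cap, Psmd2 was lower in AdeCre cells and Psmd8 was higher in both virus groups. Psmd2 encodes a large scaffold subunit of the base, which docks ubiquitin receptors. Its probe ILMN_2682947 read 5.20, 5.47 and 5.14 in AdeCre cells, against 5.87, 6.16 and 5.84 in AdeLacZ cells and 6.32 and 6.19 in Untreated cells. Every AdeCre array was below the others, and 1 of the 3 lay above the detection floor. The probe fell by 0.69 ± 0.12 in AdeCre against AdeLacZ cells (limma adjusted p = 0.0155) and by 0.98 ± 0.14 against Untreated cells (adjusted p = 0.00193). With 2 AdeCre arrays under the floor, no fold is given.

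Being dim, this probe depended on the background correction in size. Without any correction its change in AdeCre against AdeLacZ cells was -1.95 (adjusted p = 0.0635), and with an offset of 50 it was -0.40 (adjusted p = 0.00803). Against Untreated cells the same settings gave -2.48 and -0.60, and both passed. The fall against AdeLacZ cells did not pass without AdeCre replicate 1 or 3 or AdeLacZ replicate 2 (adjusted p up to 0.0609), whereas the fall against Untreated cells passed whichever array was left out.

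The other Psmd2 probe, ILMN_2682945, read 6.56, 6.83 and 6.42 in AdeCre cells, against 6.84, 7.13 and 6.84 in AdeLacZ cells and 7.31 and 7.11 in Untreated cells. The AdeCre arrays were again lowest. It fell by 0.60 ± 0.15 in AdeCre against Untreated cells (1.52-fold, limma adjusted p = 0.0229), a call lost without AdeCre replicate 1 or 3 or Untreated replicate 1 (adjusted p up to 0.171). The difference against AdeLacZ cells was -0.33 ± 0.13 (adjusted p = 0.177). With the probes of each gene averaged, Psmd2 fell by 0.51 ± 0.12 in AdeCre against AdeLacZ cells (limma adjusted p = 0.0481).

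Psmd8 encodes a subunit of the lid, the part of the cap that removes ubiquitin. Its log2 signals were 11.65, 11.30 and 11.40 in AdeCre cells, 11.38, 11.20 and 11.44 in AdeLacZ cells and 10.51 and 10.86 in Untreated cells. The virus groups overlapped and both lay wholly above the Untreated arrays. Psmd8 rose by 0.77 ± 0.15 in AdeCre (1.70-fold, limma adjusted p = 0.00778) and by 0.66 ± 0.15 in AdeLacZ cells (1.58-fold, adjusted p = 0.0308), each against Untreated cells. The rise in AdeLacZ cells did not pass without AdeLacZ replicate 1 or 3 or Untreated replicate 1 (adjusted p up to 0.267), and that in AdeCre cells did not pass without Untreated replicate 1 (adjusted p = 0.0897).

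Psmd7, which encodes the lid subunit that pairs with the deubiquitinase Psmd14, had a pair of probes with opposite directions. ILMN_1220284 read 10.14, 10.15 and 10.32 in AdeCre cells, 10.35, 10.49 and 10.28 in AdeLacZ cells and 10.63 and 10.54 in Untreated cells. Both virus groups lay below the Untreated arrays. It fell by 0.38 ± 0.11 in AdeCre against Untreated cells (1.31-fold, limma adjusted p = 0.0467), and of 8 fits with 1 array left out it passed in the 1 without AdeCre replicate 3 (adjusted p up to 0.215 in the others). ILMN_2630438 read 11.44, 11.41 and 11.24 in AdeCre cells, 11.19, 11.14 and 11.27 in AdeLacZ cells and 11.17 and 11.26 in Untreated cells. Its groups overlapped, and its change in AdeCre against Untreated cells was 0.14 ± 0.11 (adjusted p = 0.435). With both probes averaged, Psmd7 did not pass in that comparison, at -0.12 ± 0.09 (limma adjusted p = 0.401).

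Psmd6, another lid subunit, is described because of its order of groups, chosen after its values were seen. Its probe ILMN_1241910 read 7.42, 7.57 and 7.83 in AdeCre cells, 7.27, 6.97 and 7.30 in AdeLacZ cells and 7.83 and 7.62 in Untreated cells. The AdeLacZ arrays were below all others. The change was 0.43 ± 0.14 in AdeCre against AdeLacZ cells (limma adjusted p = 0.0972) and -0.55 ± 0.15 in AdeLacZ against Untreated cells (adjusted p = 0.0652), so neither passed. Its other probe, ILMN_1254132, read 5.79, 6.21 and 6.29 in AdeCre cells, 6.13, 5.49 and 5.96 in AdeLacZ cells and 6.23 and 6.10 in Untreated cells. All groups overlapped on it, with changes of 0.24 in AdeCre against AdeLacZ (adjusted p = 0.479) and -0.30 in AdeLacZ against Untreated cells (adjusted p = 0.419). Over all 15 tested non-ATPase probes the median change was 0.06 in AdeCre against AdeLacZ, -0.21 in AdeLacZ against Untreated and -0.12 in AdeCre against Untreated cells, with 12 and 10 of the 15 below 0 in the last 2 comparisons.

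**Figure D2:**
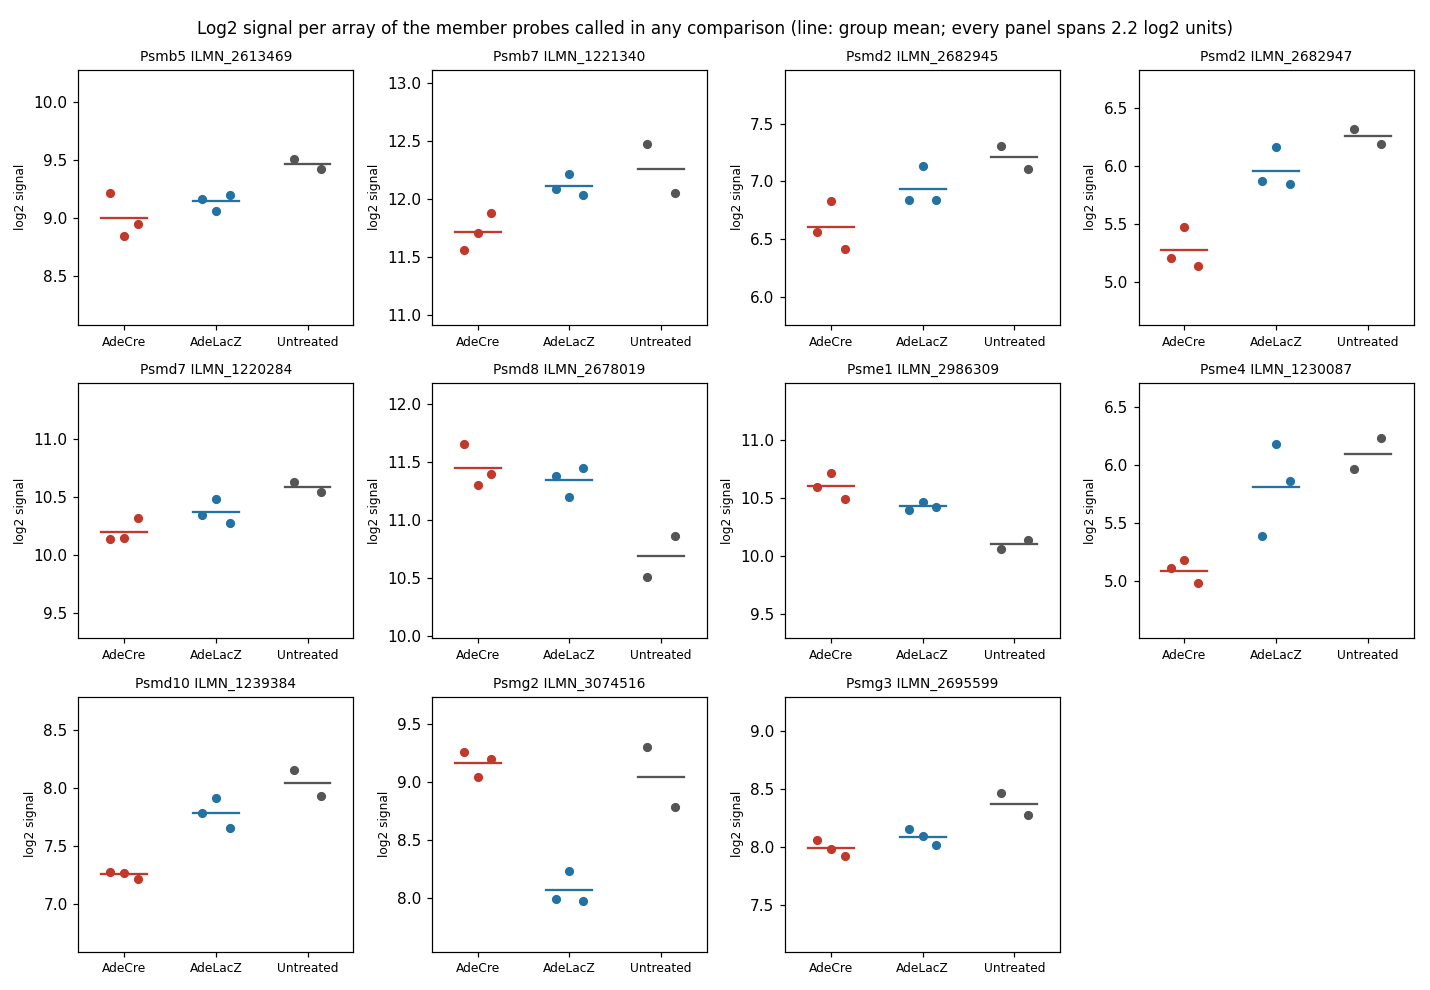
Log2 signal on each array (points) and the group mean (line) for the 11 probes with an adjusted p under 0.05 in any comparison, with AdeCre, AdeLacZ and Untreated from left to right in each panel and 2.2 log2 units on every axis. Psmg2 ILMN_3074516 is low in the AdeLacZ arrays, at 7.97 to 8.23, and Psmd8 is high in both virus groups.

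The activators attach to the core in place of the cap. Psme4 encodes PA200, a large nuclear activator linked to histone turnover, and it was lower in AdeCre cells. Its probe ILMN_1230087 read 5.11, 5.18 and 4.98 in AdeCre cells, against 5.39, 6.18 and 5.86 in AdeLacZ cells and 5.97 and 6.23 in Untreated cells. No AdeCre array lay above the detection floor, so the probe was tested only through the other groups, and the change is a bound computed against that floor. With the offset of 16 this bound was a 1.46-fold fall in AdeCre against AdeLacZ cells (limma adjusted p = 0.0426 for the fitted change). Against Untreated cells it was a 1.78-fold fall (limma adjusted p = 0.00797). The bound compares group means, makes no allowance for their error and holds for that offset only. The call against AdeLacZ cells was lost in 7 of 8 fits with 1 array left out, all but the one without AdeLacZ replicate 1 (adjusted p up to 0.128), and when no filter on dim probes was set (adjusted p = 0.0694). The call against Untreated cells was lost without Untreated replicate 2 (adjusted p = 0.0617). The fitted changes also depended on the background correction. In AdeCre against AdeLacZ cells they were -0.72 with the offset of 16, -0.41 with an offset of 50 and -2.64 without correction (adjusted p = 0.0963 for the last). Against Untreated cells they were -1.01, -0.59 and -3.28, and all 3 passed.

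The bright probe of Psme4, ILMN_2947187, read 11.02, 10.89 and 10.91 in AdeCre cells, against 11.30, 11.22 and 11.29 in AdeLacZ cells and 11.12 and 11.23 in Untreated cells. AdeCre arrays were again below all others. Its change was -0.32 ± 0.09 in AdeCre against AdeLacZ cells (1.25-fold, limma adjusted p = 0.073) and -0.23 ± 0.10 against Untreated cells (adjusted p = 0.174). With both probes averaged, Psme4 fell by 0.52 ± 0.11 in AdeCre against AdeLacZ cells (limma adjusted p = 0.0273). Against Untreated cells the averaged fall was 0.62 ± 0.12 (limma adjusted p = 0.00933). These averages include the dim probe, which was below the floor on every AdeCre array, and the bright probe alone did not pass.

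Psme1 and Psme2 encode the PA28 activator, which interferon gamma induces and which aids antigen processing. Psme1 probe ILMN_2986309 read 10.60, 10.72 and 10.49 in AdeCre cells, 10.40, 10.47 and 10.42 in AdeLacZ cells and 10.06 and 10.14 in Untreated cells. The 3 groups did not overlap. It rose by 0.50 ± 0.11 in AdeCre against Untreated cells (1.42-fold, limma adjusted p = 0.0127), a call lost without Untreated replicate 1 (adjusted p = 0.0927), and its change in AdeLacZ against Untreated cells was 0.33 ± 0.11 (adjusted p = 0.111). Its other probe, ILMN_2671204, read 9.37, 9.56 and 9.51 in AdeCre cells, 9.42, 9.59 and 9.41 in AdeLacZ cells and 9.12 and 9.14 in Untreated cells. Here too both virus groups lay above the Untreated arrays. The changes were 0.35 ± 0.11 in AdeCre (adjusted p = 0.0615) and 0.34 ± 0.11 in AdeLacZ cells (adjusted p = 0.11), each against Untreated cells.

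Psme2, the partner of Psme1 in PA28, did not move with it. It read 7.76, 7.95 and 8.0 in AdeCre cells, 8.16, 8.12 and 7.96 in AdeLacZ cells and 8.17 and 8.08 in Untreated cells. The AdeCre arrays were below the Untreated ones, with a difference of -0.23 ± 0.12 (limma adjusted p = 0.237). Psme3 encodes a nuclear relative of PA28 and read 10.74, 10.67 and 10.68 in AdeCre cells, 10.54, 10.51 and 10.52 in AdeLacZ cells and 10.50 and 10.81 in Untreated cells. The AdeCre arrays were above the AdeLacZ ones, by 0.17 ± 0.10 (adjusted p = 0.363), and within the range of the Untreated ones.

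The immunoproteasome subunits, which replace catalytic beta subunits after interferon, were set beside Psme1. Psmb10 probe ILMN_2757870 read 8.90, 9.02 and 8.88 in AdeCre cells, 8.59, 8.83 and 8.83 in AdeLacZ cells and 8.17 and 8.51 in Untreated cells. It rose by 0.59 ± 0.13 in AdeCre against Untreated cells (limma adjusted p = 0.0152), as did its other probe ILMN_2914843, by 0.52 ± 0.12 (adjusted p = 0.0169). Psmb9 and Psmb8 did not pass in any comparison, with changes of 0.32 and 0.22 in AdeCre against Untreated cells, and Psmb8 was above the detection floor on 4 of 8 arrays, none of them Untreated. Interferon response genes were set beside these. Isg15 read 9.39, 9.81 and 9.66 in AdeCre cells, 9.84, 10.54 and 10.08 in AdeLacZ cells and 6.13 and 7.90 in Untreated cells. Isg15, Irf1 (on at least 1 of its probes) and Tap1 rose in both virus groups against Untreated cells, and none of the 3 passed in AdeCre against AdeLacZ cells. Their part in the Psme1 result was not tested.

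**Figure D3:**
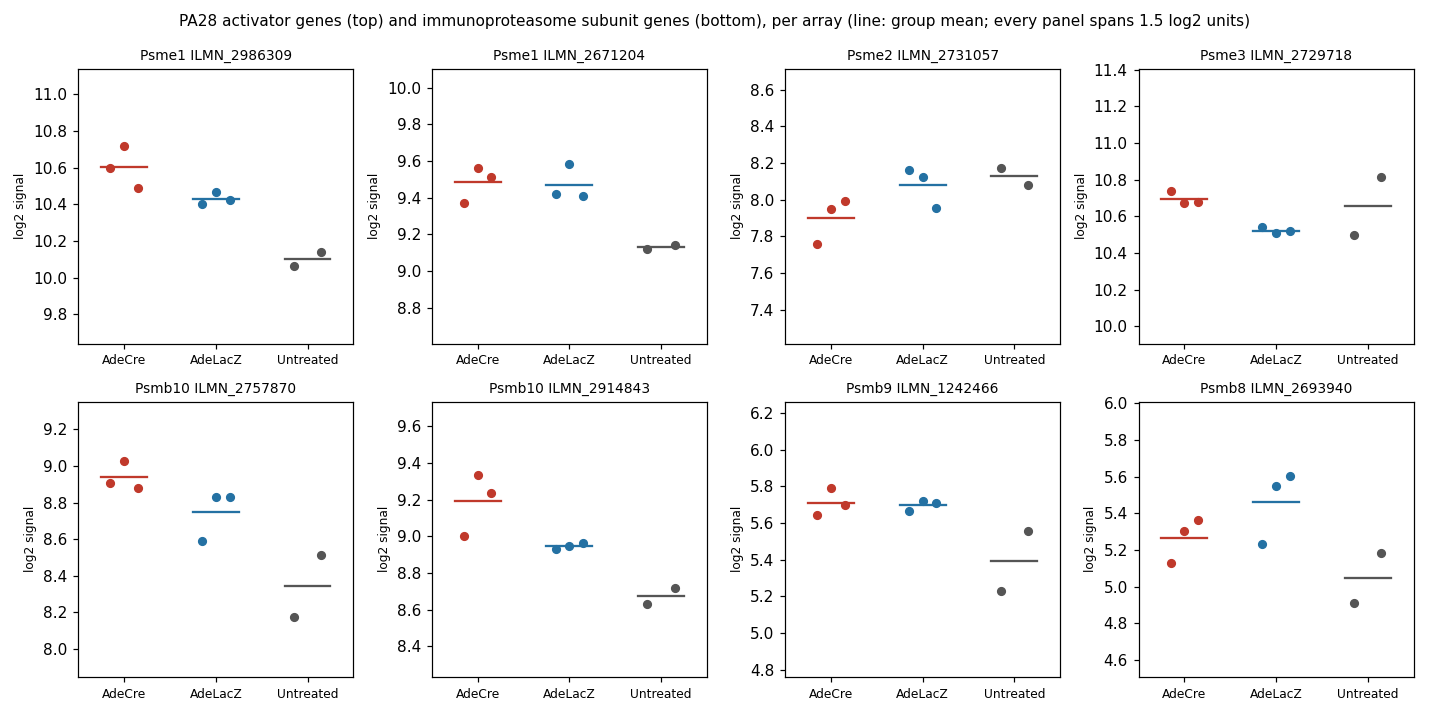
Log2 signal on each array (points) and the group mean (line) for probes of the PA28 family genes Psme1, Psme2 and Psme3 (top) and of the immunoproteasome genes Psmb10, Psmb9 and Psmb8 (bottom), with AdeCre, AdeLacZ and Untreated from left to right and 1.5 log2 units on every axis. Both probes of Psme1 and both of Psmb10 lie above the Untreated arrays in both virus groups, and Psme2 does not.

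The promoter of Psme1 is shown because it is the activator gene that rose. It lies at chr14:55578244-55578493 (GRCm38.p6, RefSeq, plus strand) and reads 5′ to 3′ up to the base before the start. It was searched on both strands for the interferon-stimulated response element as GAAANNGAAA and the GAS element as TTCNNNGAA, and neither set of letters is in this window, which has no capitals.
Psme1: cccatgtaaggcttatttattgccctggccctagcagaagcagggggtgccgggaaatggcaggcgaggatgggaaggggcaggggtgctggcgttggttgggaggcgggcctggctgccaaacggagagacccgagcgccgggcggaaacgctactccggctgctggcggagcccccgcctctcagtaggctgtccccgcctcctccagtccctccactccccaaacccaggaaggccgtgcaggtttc
GAAANNGAAA occurred in the windows of 3 of the 36 genes, Psmb3, Psmd4 and Psmd9 (8.33%, against 2.98% of all windows). TTCNNNGAA, which is the same on both strands, occurred in that of Psmg1 (2.78%, against 7.02%). Here too a share of genes is set beside a share of windows. None of these 4 genes passed in any comparison.

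Among the assembly factors Psmg2 was higher and Psmd10 lower in AdeCre than in AdeLacZ cells, each on a single probe. Psmg2 encodes a chaperone that pairs with Psmg1 to build the alpha ring. Its probe ILMN_3074516 read 9.26, 9.04 and 9.20 in AdeCre cells, against 7.99, 8.23 and 7.97 in AdeLacZ cells and 9.30 and 8.78 in Untreated cells. The AdeLacZ arrays stood below all others, and the AdeCre and Untreated arrays overlapped. The probe rose by 1.10 ± 0.14 in AdeCre against AdeLacZ cells (2.15-fold, limma adjusted p = 0.00338). It fell by 0.98 ± 0.16 in AdeLacZ against Untreated cells (1.97-fold, adjusted p = 0.00641). Its change in AdeCre against Untreated cells was 0.12 ± 0.16 (adjusted p = 0.665). The rise passed whichever array was left out (1.06 to 1.19), and the fall in AdeLacZ cells did not pass without Untreated replicate 1 (-0.72, adjusted p = 0.0755).

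The other probe of Psmg2, ILMN_3153450, read 8.43, 8.62 and 8.83 in AdeCre cells, 8.50, 8.43 and 8.70 in AdeLacZ cells and 8.91 and 8.65 in Untreated cells. All groups overlapped. Its changes were 0.08 ± 0.13 in AdeCre against AdeLacZ cells (limma adjusted p = 0.767) and -0.23 ± 0.15 in AdeLacZ against Untreated cells (adjusted p = 0.402). With both probes averaged, Psmg2 rose by 0.59 ± 0.11 in AdeCre against AdeLacZ cells (adjusted p = 0.0191) and fell by 0.61 ± 0.13 in AdeLacZ against Untreated cells (adjusted p = 0.0208).

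Psmg1, the partner of Psmg2, read 8.71, 8.75 and 8.57 in AdeCre cells, 8.48, 8.53 and 8.51 in AdeLacZ cells and 8.47 and 8.41 in Untreated cells. The AdeCre arrays were above all others, by 0.17 ± 0.09 over AdeLacZ (limma adjusted p = 0.326) and by 0.24 ± 0.10 over Untreated cells (adjusted p = 0.163). Psmg3, which acts later in building the alpha ring, read 8.06, 7.98 and 7.93 in AdeCre cells, 8.15, 8.10 and 8.02 in AdeLacZ cells and 8.47 and 8.27 in Untreated cells. Both virus groups lay below the Untreated arrays. Psmg3 fell by 0.38 ± 0.11 in AdeCre against Untreated cells (1.30-fold, limma adjusted p = 0.0432), and of 8 fits with 1 array left out it passed in the 1 without Untreated replicate 2 (adjusted p up to 0.252 in the others).

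Psmd10, Psmd5 and Psmd9 help to assemble the base of the cap. Psmd10 encodes gankyrin, a chaperone of the ATPase ring that also binds regulators of the cell cycle. Its probe ILMN_1239384 read 7.28, 7.27 and 7.22 in AdeCre cells, against 7.78, 7.91 and 7.66 in AdeLacZ cells and 8.16 and 7.93 in Untreated cells. The 3 groups did not overlap. The probe fell by 0.53 ± 0.11 in AdeCre against AdeLacZ cells (1.44-fold, limma adjusted p = 0.0208) and by 0.79 ± 0.12 against Untreated cells (1.73-fold, adjusted p = 0.00236). The fall against AdeLacZ cells passed in 3 of 8 fits with 1 array left out, and not without any one of the 3 AdeCre replicates or without AdeLacZ replicate 1 or 2 (adjusted p up to 0.0838). That against Untreated cells passed in all 8.

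The other probes of Psmd10 were lower in AdeCre cells without passing. ILMN_2694080 read 8.36, 8.54 and 8.60 in AdeCre cells, 8.52, 8.78 and 8.74 in AdeLacZ cells and 9.18 and 8.69 in Untreated cells. ILMN_3003308 read 8.80, 8.84 and 8.93 in AdeCre cells, 9.23, 9.02 and 9.09 in AdeLacZ cells and 9.53 and 8.91 in Untreated cells. AdeCre and AdeLacZ arrays overlapped on the first and not on the other. Their changes against AdeLacZ cells were -0.18 ± 0.14 (limma adjusted p = 0.5) and -0.26 ± 0.15 (adjusted p = 0.343). Averaged over the 3 probes, Psmd10 fell by 0.53 in AdeCre against Untreated cells (adjusted p = 0.0215) and did not pass against AdeLacZ cells.

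Psmd5 read 7.17, 7.38 and 6.84 in AdeCre cells, against 7.53, 7.74 and 7.40 in AdeLacZ cells and 7.48 and 7.50 in Untreated cells. The AdeCre arrays were below all others, by 0.42 ± 0.14 against AdeLacZ cells (limma adjusted p = 0.117). The probes of Psmd9 overlapped between AdeCre and AdeLacZ cells. Of the genes kept apart, Psmc3ip, a meiotic recombination factor, read 8.40, 8.42 and 8.43 in AdeCre cells, 8.64, 8.57 and 8.47 in AdeLacZ cells and 8.68 and 8.88 in Untreated cells. Its groups did not overlap, and its change in AdeCre against Untreated cells was -0.36 ± 0.11 (limma adjusted p = 0.0511). Psme3ip1, which binds the product of Psme3, read 8.81, 8.86 and 8.84 on probe ILMN_2688834 in AdeCre cells, against 9.02, 9.05 and 9.0 in AdeLacZ cells and 9.11 and 8.99 in Untreated cells. The AdeCre arrays were lowest, and the change against AdeLacZ cells was -0.19 ± 0.09 (adjusted p = 0.251).

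Probes of 1 gene could be compared in 15 genes, 13 with 2 tested probes and 2 with 3, which gave 19 pairs. The difference between 2 probes of a gene was taken on each array and then compared between groups, so that their levels need not be equal. In AdeCre against AdeLacZ cells the changes of the 2 probes differed by more than 0.5 in 1 pair, that of Psmg2, at 1.02. The next largest difference was 0.50, in Psmb7, and the median size was 0.27. The difference between the Psmg2 probes was 0.83, 0.42 and 0.37 on the AdeCre arrays, against -0.52, -0.20 and -0.74 on the AdeLacZ arrays and 0.39 and 0.13 on the Untreated arrays. The AdeLacZ arrays stood apart from all others. For 8 of the 19 pairs the AdeCre and AdeLacZ arrays did not overlap in this difference, which gives an exact two-sided permutation p = 0.1, the smallest that 3 against 3 arrays allow, and adjusted p = 0.238 over the 19 pairs. No pair could pass the threshold in this design. How often probe pairs of other genes on the array fail to overlap was not examined.

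Changes of the probes had the same sign in 12 of 19 pairs in AdeCre against AdeLacZ, 16 in AdeLacZ against Untreated and 12 in AdeCre against Untreated cells. In AdeLacZ against Untreated cells Psmg2 was again the only pair above 0.5, at 0.75. In AdeCre against Untreated cells 4 pairs were above 0.5, which were 1 pair of Psme4 at 0.78, 2 pairs of Psmb7 at 0.54 and 0.51, and 1 pair of Psmd7 at 0.53. The probe sequences were not used here, so which transcripts each probe detects was not tested.

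**Figure D4:**
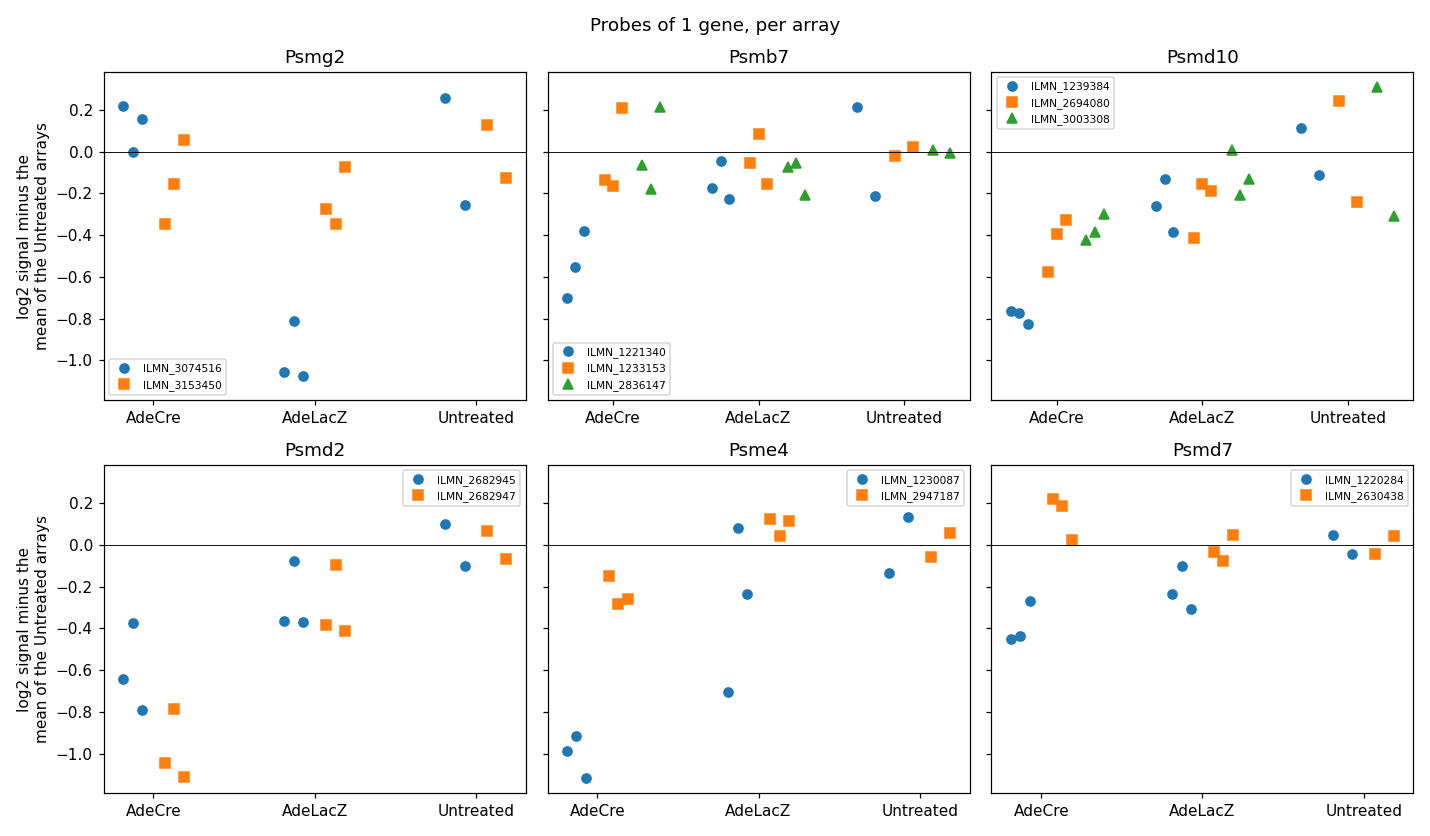
Log2 signal on each array minus the mean of the Untreated arrays for every tested probe (colour and shape) of 6 of the genes whose probes disagreed in a call or by more than 0.5, with AdeCre, AdeLacZ and Untreated from left to right. In Psmg2 the probe ILMN_3074516 is low in AdeLacZ cells and ILMN_3153450 is not, and in Psmb7 1 of 3 probes is low in AdeCre cells.

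Other genes of the pathway were examined from a list of 32 symbols for receptors, shuttle factors, deubiquitinases, assembly factors and regulators, of which 19 had a probe and 16 genes were tested on 21 probes. In AdeCre against AdeLacZ cells 0 genes rose and 1 fell, in AdeLacZ against Untreated cells 0 rose and 0 fell, and in AdeCre against Untreated cells 0 rose and 2 fell by limma. Over the 21 probes these were 9.52%, 0% and 9.52%, against 5.03%, 5.23% and 13.7% of all tested probes. At an unadjusted p under 0.05, 7, 4 and 6 of the 21 probes passed (33.3%, 19% and 28.6%), against 21.8%, 20.8% and 28.5% of all. Ubqln1, a shuttle that carries ubiquitinated proteins to the proteasome, read 7.82, 7.84 and 7.73 on probe ILMN_2482555 in AdeCre cells, against 8.32, 8.40 and 8.70 in AdeLacZ cells and 8.40 and 8.35 in Untreated cells. All 3 AdeCre arrays were below the rest. That probe fell by 0.68 ± 0.11 against AdeLacZ cells (limma adjusted p = 0.0119) and a further one, ILMN_2479786, by 0.58 ± 0.11 (adjusted p = 0.0185), while its 2 other tested probes did not pass. Uchl5, a deubiquitinase of the cap, read 8.42, 8.50 and 8.32 on probe ILMN_1226422 in AdeCre cells, 8.73, 8.80 and 8.79 in AdeLacZ cells and 9.38 and 8.93 in Untreated cells. It fell by 0.74 ± 0.14 in AdeCre against Untreated cells (adjusted p = 0.00635), and its 2 other probes did not pass.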

How the data were processed

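Total RNA of 8 samples had been hybridised to Illumina bead arrays, and BeadStudio 2.1 was among the tools, per the submitters' processing notes. The values deposited by the authors are background-subtracted linear intensities, of which 25.7% lay below 0, with all arrays on a shared distribution. The methods behind this are not given in the sources used here. A second table has 32 columns of per-sample values named by chip position, which match no label, so it was not used, nor were its detection values.

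Intensities were corrected with normexp in limma 3.58.1 (R 4.3.3, offset 16), then log2-transformed without normalization between arrays. The floor was 1.64 background SDs, estimated per array from negative values mirrored around 0. All 3 groups entered 1 model (lmFit and eBayes, 5 residual and 5.64 prior degrees of freedom), fitted to all tested probes (62.0% of the array), with Benjamini-Hochberg adjustment and two-sided tests. The fit was tested on simulated data. The number of arrays limits the precision.

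Symbols came from the platform annotation, and all 63 member probes kept theirs in RefSeq. Described with values on every array were member probes past the threshold, the largest change per role, genes whose probes disagreed in a call or by over 0.5, and the Psmg genes, Psme genes and Psmc3ip. Members, lists and rules were chosen with earlier results of these data known. Alternatives were the offset, no correction, quantile normalization, the filter, a trended and robust prior, array weights, a replicate block, probe averaging and leaving out each array. Figures used matplotlib 3.10.9 (Python 3.11.15).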

Additional observations from a re-analysis of the deposited data

How the results depend on the processing

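The number of proteasome probes past the threshold in AdeCre against AdeLacZ cells was 4, with 9 at an offset of 50, 8 with a trended and robust prior and 1 without background correction (Psmg2). Over all tested probes the shares moved as well, at 5.03%, 8.91%, 8.98% and 1.52% in the same order. In AdeLacZ against Untreated cells the number of proteasome probes was 2, with 5 at an offset of 50, 5 with the trended and robust prior, 1 without the filter on dim probes and 0 without background correction, where 8 probes had an unadjusted p under 0.05 in limma. The shares of all tested probes were 5.23%, 9.03%, 9.41%, 1.89% and 1.64% in that order. In AdeCre against Untreated cells the number of proteasome probes was 10, with 16 under the trended and robust prior, 6 without the filter and 5 without background correction. Here 13.7%, 18.2%, 5.74% and 8.32% of all tested probes passed in that order. With only probes above the floor on all 8 arrays, 3, 3 and 11 of 55 proteasome probes passed in the 3 comparisons. All probes tested that way passed at 9.90%, 9.42% and 20.7%. Leaving out 1 array gave 1 to 3 probes in AdeCre against AdeLacZ cells, 0 to 3 in AdeLacZ against Untreated cells and 3 to 9 in AdeCre against Untreated cells. The 0 came without Untreated replicate 1, where 7 probes had an unadjusted p under 0.05. The number of probe pairs that differed by more than 0.5 was 1, with 4 without background correction and 1 to 4 with 1 array left out. With 1 AdeCre or AdeLacZ array left out, 1.20% to 2.72% of all tested probes passed in AdeCre against AdeLacZ cells. The shares were 2.45% to 5.32% in AdeLacZ against Untreated and 9.15% to 12.6% in AdeCre against Untreated cells. The cause of the shifts between settings was not tested, and fits with an array left out have fewer samples.

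Array weights and averaged probes kept the total of called members, both directions together, within 1.5 times in each comparison. Quantile normalization left the totals at 4, 2 and 10. It could change little, because the deposited arrays already lie on a shared distribution. By direction, array weights left 5 rather than 8 probes called lower in AdeCre against Untreated cells. Over 16 called changes of named probes and all settings, 180 of 252 values stayed past the threshold, 72 did not and 0 changed sign. Deviations from the group means correlated at -0.14 to 0.02 between arrays with the same replicate number, and at -0.14 to 0.14 between arrays with different numbers. Within a group these deviations cancel out, so the check cannot tell whether the numbers pair the samples. With the replicate number as a block, 4, 1 and 5 proteasome probes passed in AdeCre against AdeLacZ, AdeLacZ against Untreated and AdeCre against Untreated cells. Over all tested probes the shares with that block were 3.12%, 2.77% and 9.24%. The number of arrays, and for Psme4 and Psmd2 a signal near the floor, limit what can be detected.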
